A study of Homo sapiens with 6 samples.

Results

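SAMD1 and the human proteins with malignant brain tumor (MBT) repeats are chromatin proteins, and 10 of their genes were followed here through the transcriptomes of pancreatic cancer cells that had lost SAMD1. The genes were chosen by name. They are *SAMD1*, *L3MBTL1*, *L3MBTL2*, *L3MBTL3*, *L3MBTL4*, *SFMBT1*, *SFMBT2*, *MBTD1*, *SCMH1* and *SCML2*, and all 10 were found among the 20347 gene symbols measured. RNA-seq was performed in PaTu8988t, an established human cell line of pancreatic ductal adenocarcinoma (PDAC), in 3 libraries of Control cells and 3 libraries of *SAMD1* KO cells. Both groups were grown in the same medium with fetal bovine serum. KO cells carried CRISPR/Cas9 edits directed at *SAMD1*, made with a lentiCRISPR V2 plasmid under puromycin selection, and each KO library came from a different clone. Control cells had received an unspecific guide, and it is not stated whether their 3 replicates came from separate clones or cultures. P-values therefore cover the spread between these libraries, which for Control may be technical.

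SAMD1 binds unmethylated CpG islands, the CG-rich DNA around many promoters, through a winged helix domain that prefers GCGC-containing sequence, and it uses its SAM domain to contact other proteins. MBT repeats are folds with a pocket for lysines that carry a single or a pair of methyl groups, such as those on histone tails, and most MBT proteins are known as repressors. L3MBTL3 and KDM1A, an eraser of H3K4 methylation, are known partners of SAMD1 on chromatin, and the study also names SFMBT1 and L3MBTL4 as interactors. Several other MBT proteins belong to Polycomb complexes or, for MBTD1, to the NuA4-TIP60 histone acetyltransferase.

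Libraries held 35589477 to 45172216 reads on genes, and the 10 genes had between 154 reads (*L3MBTL1*) and 5233 reads (*L3MBTL3*) in a library. Values are normalized counts, that is read counts divided by a size factor per library, and all 10 genes were among the 12773 genes that reached a mean normalized count of 10. Of the epithelial markers, *KRT8* and *KRT18* lay between 29200 and 57041 normalized counts, *EPCAM* between 422.2 and 626.4, *KRT7* between 26.4 and 90.7, and *KRT19* was listed at 0 in every library. The summed epithelial markers reached 62681 to 65891 in Control and 67617 to 108553 in KO cells. Of the markers of other cell types, *DCN*, *LUM* and *CD3E* were at 0 and *PTPRC* and *COL1A2* at no more than 2.698 normalized counts. *COL1A1* lay between 15.3 and 52.7, *PECAM1* between 7.91 and 31.5, *CDH5* between 2.97 and 37.7 and *VWF* between 16.4 and 40.5. The lysosomal gene *CD68* lay between 241.9 and 367.9. The summed level ranged from 49.9 to 52.7 in Control and from 15.3 to 41.5 in KO cells for the 4 fibroblast markers. For the 3 leukocyte markers it ranged from 355.1 to 369.8 in Control and from 244.5 to 328.3 in KO cells, and for the 3 endothelial markers from 77.8 to 84.8 and from 33.6 to 83.6. Their part in the results was not tested.

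After loss of SAMD1, 3 of the 9 MBT genes were called higher (*L3MBTL3*, *SFMBT1* and *SFMBT2*) and none was called lower. *SAMD1* itself was called lower. *L3MBTL3* rose 4.63-fold and became the most abundant of the 10 transcripts per exonic length, while *SFMBT1* and *SFMBT2* rose 1.52-fold and 1.65-fold. The other 6 MBT genes were not called. To be called, a gene had to differ by more than 0.5 on the log2 scale with a limma p, unadjusted, under 0.01, which 5.77% of all tested genes met for a rise, 2.08% for a fall and 7.85% in either direction. All 4 called genes also had an adjusted p under 0.05, as did 13% of all tested genes. Because the RNA came from bulk cultures, fewer cells with a transcript and less of it per cell cannot be told apart.

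**Figure D1:**
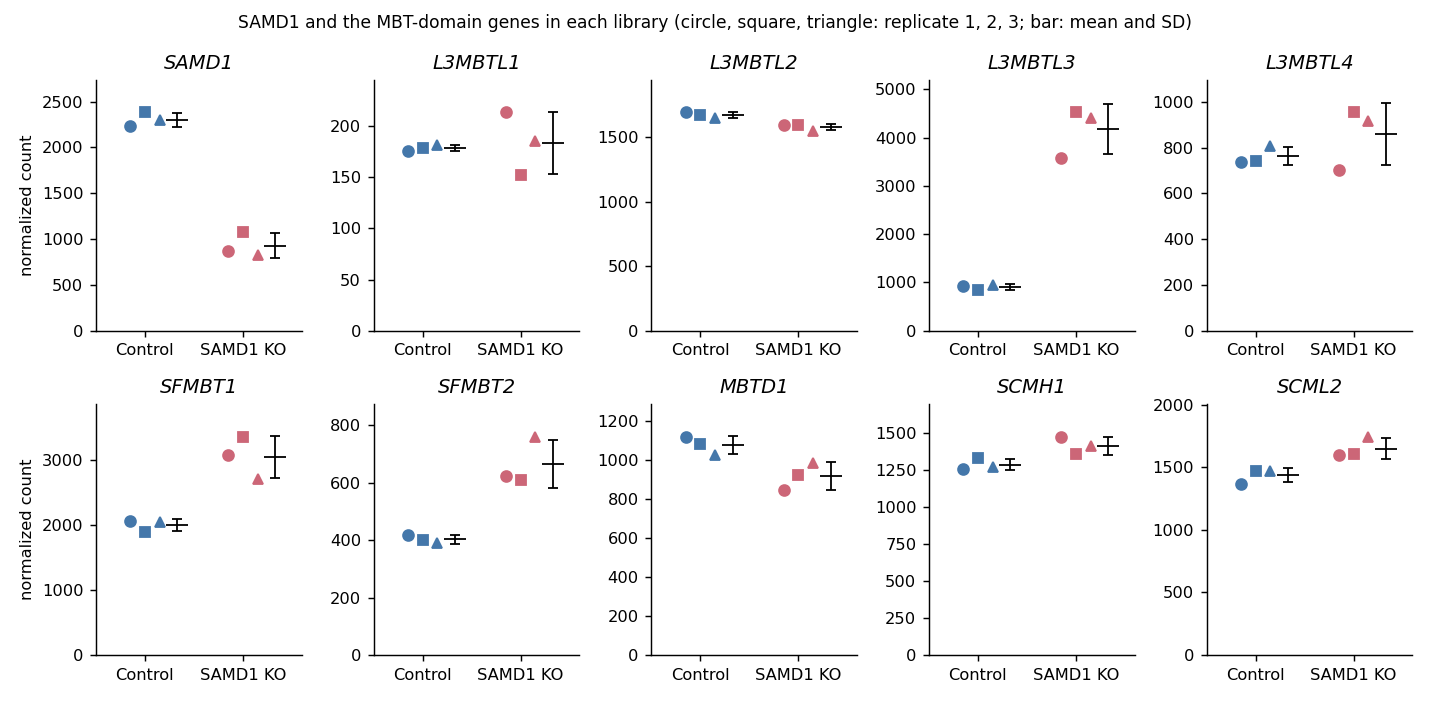
Normalized count (vertical axes, linear from 0) of each of the 10 genes in the 3 Control libraries (blue) and the 3 *SAMD1* KO clones (red), with circle, square and triangle for replicates 1, 2 and 3 and a black bar for the group mean and SD. All KO points of *L3MBTL3* lie between 3574 and 4521, above the Control points at 839 to 948, whereas the groups overlap for *L3MBTL1* and *L3MBTL4*.

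*SAMD1* (GRCh38 chr19:14087851-14091036, minus strand), the targeted gene, measured 2231, 2382 and 2299 normalized counts in Control replicates 1 to 3 and 874.1, 1082 and 824.8 in KO clones 1 to 3. Each clone lay below each Control library, so no library went against its label. The mean fell from 2304 ± 76.1 to 927 ± 136 (SD, n = 3 each), to 40.2% of Control, a log2 fold change of -1.32 (SE 0.105, 95% interval -1.57 to -1.08, adjusted p = 0.000724). A count shows how much transcript remained and not its edited sequence. The nearest tested gene at lower coordinates, *MISP3*, was called higher, at 35.5, 43.1 and 45.8 normalized counts in Control and 163.2, 121.0 and 95.3 in the clones (log2 fold change 1.56, SE 0.232, adjusted p = 0.00681). *PRKACA*, which encodes a catalytic subunit of protein kinase A and lies on the other side, was not called at a log2 fold change of 0.22 (adjusted p = 0.0739). Of the 40 tested genes nearest to *SAMD1*, 21 were higher and their median log2 fold change was 0.01.

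The loss of *SAMD1* transcript was least in clone 2 and greatest in clone 3, with log2 differences from the Control mean of -1.40, -1.09 and -1.48 in clones 1 to 3. The transcripts whose 6 libraries followed *SAMD1* most closely were *RAB3B*, *BEST3*, *STYK1*, *ATP8B1* and *PDLIM2*. Likeness was the root mean square difference of the log2 values, each centered on its Control mean, among 11443 genes with a mean of at least 50. It was 0.035 for *RAB3B*, which encodes a small GTPase of vesicle traffic, and 0.148 for *BEST3*, a bestrophin. *RAB3B* measured 5754, 6026 and 6112 normalized counts in Control and 2309, 2857 and 2055 in clones 1 to 3. Because *RAB3B* was picked for closeness over these same 6 libraries, its matching size of fall and order of clones is no separate result.

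*L3MBTL3* (GRCh38 chr6:130013699-130141449, plus strand) encodes a protein with MBT repeats and a SAM domain that is a direct partner of SAMD1. It measured 913.9, 838.5 and 948.4 normalized counts in Control and 3574, 4521 and 4411 in KO clones 1 to 3. The lowest clone lay far above the highest Control library. The mean rose from 900 ± 56.2 to 4169 ± 518 (SD, n = 3 each), corresponding to a log2 fold change of 2.20 (SE 0.102, 95% interval 1.97 to 2.44, adjusted p = 0.00012). By p it ranked 7 among 12773 tested genes, and by size of the rise it ranked 42 among the 737 genes called higher. The rise was seen in each clone, with log2 differences of 1.99, 2.33 and 2.29, and clone 1 was the lowest.

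The genes around *L3MBTL3* moved in both directions. Of the 40 nearest tested genes 20 were higher, 5 were called higher and 1 was called lower, the median of their log2 fold changes was 0.00, and the value of *L3MBTL3* after removal of this regional median was 2.18. On the lower-coordinate side, *ARHGAP18*, which encodes a GTPase-activating protein, measured a log2 fold change of -0.23 (adjusted p = 0.213). On the other side, *EPB41L2*, which encodes a membrane skeleton protein, measured -0.25 (adjusted p = 0.039), lower in all 3 clones but short of the fold change that a call required. The transcripts most like *L3MBTL3* over the 6 libraries were *PCDH1*, *HEY2*, *SLC4A4*, *GNAL* and *NELL2*, at root mean square differences from 0.074 (*PCDH1*) to 0.197 (*NELL2*). *PCDH1*, which encodes a protocadherin, measured 43.5, 36.2 and 43.5 normalized counts in Control and 157.2, 225.5 and 216.8 in the clones. *HEY2*, which encodes a repressor induced by Notch signaling, measured 30.9, 31.3 and 29.8 in Control and 128.5, 178.0 and 154.7 in the clones. *HEY2* lies at chr6:125747664-125761269 and is 1 of the 40 tested genes nearest to *L3MBTL3*. These 40 genes were set by count and not by distance, and they span chr6:118959763-136793097.

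*L3MBTL3* and *SFMBT2* had the highest fold changes among the MBT genes and each has several annotated starts. The DNA ahead of these starts is shown, where it holds no annotated exon, because it can be read for the GCGC that SAMD1 prefers. RefSeq (GRCh38.p14) lists promoter windows for 9 of the 10 genes, with 3 for *L3MBTL3* and 3 for *SFMBT2*, each from 250 bases before to 50 bases after a start. *SFMBT1* was not among them. Capitals mark GCGC, which reads the same on both strands and was counted with overlaps, and each line runs 5′ to 3′ on the strand of the gene and ends just before the start.
L3MBTL3, chr6:130018810-130019059, plus strand: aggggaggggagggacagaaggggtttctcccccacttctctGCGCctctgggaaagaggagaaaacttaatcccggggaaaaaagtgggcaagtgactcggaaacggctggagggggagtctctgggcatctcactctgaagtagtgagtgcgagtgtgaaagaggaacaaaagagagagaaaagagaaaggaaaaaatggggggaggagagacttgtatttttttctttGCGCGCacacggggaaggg
SFMBT2, chr10:7409342-7409591, minus strand: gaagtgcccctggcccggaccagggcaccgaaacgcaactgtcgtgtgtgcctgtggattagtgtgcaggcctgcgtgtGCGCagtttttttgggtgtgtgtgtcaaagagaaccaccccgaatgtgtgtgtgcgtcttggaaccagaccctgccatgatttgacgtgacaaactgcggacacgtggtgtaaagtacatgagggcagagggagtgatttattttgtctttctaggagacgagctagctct
SFMBT2, chr10:7408771-7409020, minus strand: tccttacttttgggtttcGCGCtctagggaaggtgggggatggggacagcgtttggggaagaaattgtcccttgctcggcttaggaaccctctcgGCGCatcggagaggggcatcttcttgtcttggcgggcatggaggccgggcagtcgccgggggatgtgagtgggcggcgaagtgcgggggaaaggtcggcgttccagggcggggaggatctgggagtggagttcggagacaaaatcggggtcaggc

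The *L3MBTL3* stretch held 3 GCGC and the *SFMBT2* stretches 1 and 2. The full windows of 300 bases held 5, 3 and 6 GCGC for the 3 starts of *L3MBTL3* and 1, 2 and 2 for those of *SFMBT2*. GCGC was present in 57.2% of all 35116 RefSeq promoter windows, with a median of 1, and in 13 of the 16 windows of these genes, with a median of 4. The highest counts among MBT genes were those of uncalled genes, with 12 GCGC in the first window of *L3MBTL1* and 11 in that of *SCMH1*. The window of *SAMD1* itself held 12. These letter counts describe the DNA and were not set against binding. The *L3MBTL3* promoter product of the chromatin immunoprecipitation PCR of the study overlaps the first 20 bases of the *L3MBTL3* stretch. Its primers, caccagcgcagtttcccctc and ttctgtccctcccctcccct, enclose 290 bases (chr6:130018540-130018829) with 5 GCGC and 13 CpG, and the product begins 41 bases before the first RefSeq start.

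*SFMBT1* (GRCh38 chr3:52903572-53046750, minus strand), whose product has MBT repeats and a SAM domain and also contacts SAMD1, measured 2067, 1887 and 2046 normalized counts in Control and 3071, 3358 and 2712 in KO clones 1 to 3. All clones lay above all Control libraries, with clone 3 the lowest. The mean rose from 2000 ± 98.2 to 3047 ± 324 (SD, n = 3 each), corresponding to a log2 fold change of 0.60 (SE 0.087, 95% interval 0.40 to 0.81, adjusted p = 0.00606). In this stretch of chromosome 3 (52075226-57544344) other genes were higher as well. Among the 40 nearest tested genes 34 were higher, 5 were called higher and none was called lower, and the median log2 differences were 0.26, 0.29 and 0.11 in clones 1 to 3. After the regional median was removed, the log2 fold change of *SFMBT1* was 0.38 (adjusted p = 0.00434), which is below the cut-off of 0.5. The nearest tested gene at lower coordinates, *STIMATE*, which encodes an endoplasmic reticulum protein, was not called, at a log2 fold change of -0.11 (adjusted p = 0.524). In the annotation, 13.8% of the exonic bases of *SFMBT1* are shared with an unnamed protein-coding gene on the same strand.

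*SFMBT2* (GRCh38 chr10:7158624-7411488, minus strand), the paralog of *SFMBT1*, measured 418.7, 402.1 and 388.3 normalized counts in Control and 623.0, 610.8 and 760.0 in the clones. Again no clone reached down to Control, and clone 3 was the highest. The mean rose from 403 ± 15.2 to 665 ± 82.9 (SD, n = 3 each), corresponding to a log2 fold change of 0.71 (SE 0.107, 95% interval 0.46 to 0.96, adjusted p = 0.00691). Here 18 of the 40 surrounding genes (chr10:988434-14774897) were higher, with 2 called higher and 1 called lower, at a median of -0.05 on the log2 scale. The nearest tested gene at lower coordinates, *PRKCQ*, which encodes a protein kinase C of T-cell signaling, was also called higher (log2 fold change 0.53, SE 0.113, adjusted p = 0.0248). *KIN* on the other side was not called (-0.04, adjusted p = 0.749).

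**Figure D2:**
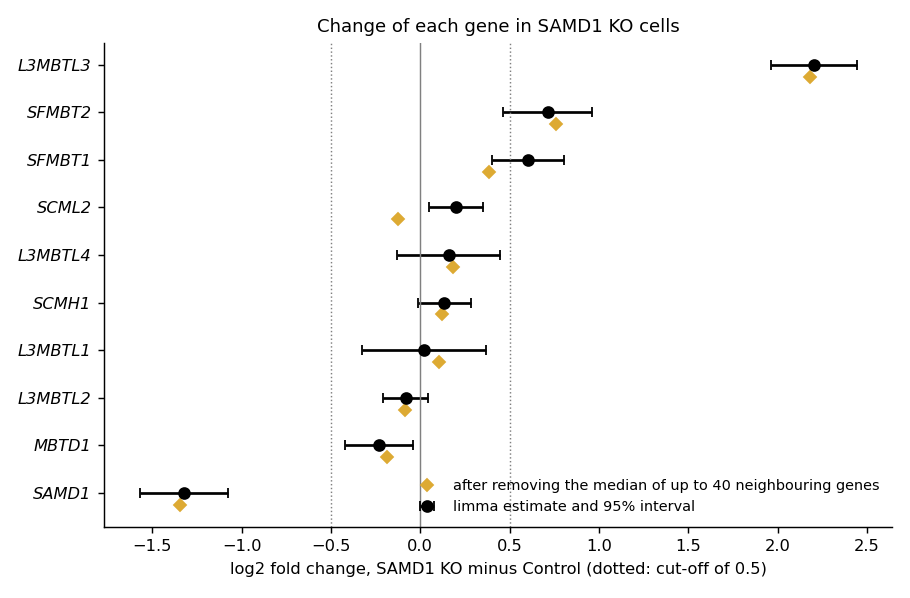
Log2 fold change between *SAMD1* KO and Control cells (horizontal axis, log2 scale, positive where KO is higher) for each gene, with the limma estimate and 95% interval from 3 and 3 libraries (black) and the estimate after the median of up to 40 neighboring genes was removed (yellow). *L3MBTL3* stands at 2.20 by the limma estimate and at 2.18 after removal, *SFMBT1* moves from 0.60 to 0.38, and *SCML2* moves from 0.20 to -0.13.

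Of the remaining members of the L3MBTL family, none was called. *L3MBTL2* (chr22:41205282-41231271, plus strand), a subunit of the Polycomb complex PRC1.6, measured 1694, 1676 and 1648 normalized counts in Control and 1597, 1596 and 1550 in the clones. The groups did not overlap, but the log2 fold change was only -0.08 (SE 0.054, 95% interval -0.21 to 0.04, adjusted p = 0.351). This interval excludes a change as large as the cut-off. An antisense gene, *L3MBTL2-AS1*, shares 21.4% of its exonic bases, and the strand setting of the counting was not stated. *L3MBTL4* (chr18:5954706-6415237, minus strand) measured 736.6, 743.6 and 809.8 in Control and 704.0, 954.7 and 917.4 in the clones. Clone 1 was below all Control libraries and the other clones were above them. Its log2 fold change was 0.16 (SE 0.124, 95% interval -0.13 to 0.45, adjusted p = 0.434), and without clone 1 it was 0.29 (adjusted p = 0.0405).

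*L3MBTL1* (chr20:43489442-43550954, plus strand), whose product compacts nucleosomes through methylated histone lysines, was the lowest of the 10 genes. It measured 176.2, 179.1 and 182.1 normalized counts in Control and 213.6, 152.1 and 185.3 in the clones. The clones lay on both sides of Control, and the log2 fold change was 0.02 (SE 0.148, 95% interval -0.32 to 0.37, adjusted p = 0.938). Its sign turned without clone 1 (-0.09). An unnamed protein-coding gene on the same strand shares 21.7% of its exonic bases.

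*SCMH1* and *SCML2*, whose products associate with canonical PRC1, stayed below the cut-off. *SCMH1* (chr1:41027202-41242306, minus strand), a homolog of the fly Polycomb gene Sex comb on midleg, measured 1256, 1331 and 1273 normalized counts in Control and 1474, 1356 and 1410 in the clones. The groups were close but did not overlap, with a log2 fold change of 0.14 (SE 0.063, 95% interval -0.01 to 0.28, adjusted p = 0.2). *SCML2* (chrX:18239313-18354688, minus strand), which encodes a PRC1-associated protein, measured 1370, 1468 and 1468 in Control and 1600, 1607 and 1744 in the clones. Each clone was above Control, at a log2 fold change of 0.20 (SE 0.065, 95% interval 0.05 to 0.35, adjusted p = 0.0889). Its chromosomal surroundings (chrX:13734743-24078810) were higher still. Of its 40 nearest tested genes 35 were higher, 10 were called higher and 2 were called lower, the median log2 differences were 0.40, 0.19 and 0.38 in clones 1 to 3, and after removal of the regional median *SCML2* stood at -0.13 (adjusted p = 0.28).

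*MBTD1* (chr17:51177425-51260163, minus strand), the MBT subunit of the NuA4-TIP60 complex, was the only MBT gene besides *L3MBTL2* whose clones were all below Control. It measured 1119, 1080 and 1026 normalized counts in Control and 844.5, 922.7 and 985.8 in the clones. Its log2 fold change of -0.23 (SE 0.081, 95% interval -0.42 to -0.04) had an adjusted p of 0.109. Clone 1 was the lowest and clone 3 came closest to Control. The 40 genes around it had a median of -0.07 on the log2 scale, with 1 called higher and 1 called lower.

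For 8 of the 10 genes every KO clone lay on 1 side of every Control library, above it for 5 genes and below it for 3. Such separation was common, at 37.8% of all tested genes (19.2% higher and 18.6% lower). The clones varied more than the Control replicates for 10 of 10 genes, as they did for 82.8% of all tested genes. The widest spread among clones was that of *L3MBTL1*, with an SD of 0.24 on the log2 scale against 0.02 in Control, and the narrowest that of *L3MBTL2*, with 0.03 against 0.02. Over all tested genes the median SD was 0.15 among clones and 0.06 among Control replicates. No clone was the most extreme throughout. Clone 2 had the highest *L3MBTL3* and *SFMBT1* levels, clone 3 the highest *SFMBT2* level, and clone 1 the lowest *L3MBTL4* and *MBTD1* levels.

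Levels of different genes were compared as normalized counts per kb of annotated exon. In Control cells *SAMD1* was the most abundant of the 10 transcripts, at 1004 ± 33.2 per kb (SD, n = 3). *SFMBT1* (352 ± 17.3) and *SCML2* (332 ± 13.0) followed and overlapped with each other, then *SCMH1* (279.5 ± 8.52), *L3MBTL2* (262 ± 3.61), *L3MBTL3* (176 ± 11) and *MBTD1* (149.6 ± 6.46). The lowest levels were those of *L3MBTL4* (95.9 ± 5.08), *SFMBT2* (38.0 ± 1.43) and *L3MBTL1* (11.5 ± 0.192). Apart from *SFMBT1* and *SCML2*, no neighbors in this order overlapped in any library. *L3MBTL3* thus ranked only 6 among the 10 transcripts before the knockout.

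In KO cells the order was led by *L3MBTL3*, at 816 ± 101 per kb (SD, n = 3), followed by *SFMBT1* (536 ± 57.0). *SAMD1* came to 404 ± 59.4 and ranked 3, where it overlapped with *SCML2* (381 ± 18.8). The ratio of *L3MBTL3* to *SAMD1* transcript per exonic length was 0.184, 0.158 and 0.185 in the Control libraries and 1.84, 1.88 and 2.40 in the clones, so that every clone held more *L3MBTL3* than *SAMD1* and every Control library less. The lower part of the order stayed as in Control, from *SCMH1* (307 ± 12.8) through *L3MBTL2* (248 ± 4.22), *MBTD1* (128 ± 9.86), *L3MBTL4* (108 ± 17.0) and *SFMBT2* (62.6 ± 7.81) to *L3MBTL1* (11.8 ± 1.98), with an overlap between *MBTD1* and *L3MBTL4*. With the longest annotated transcript as the length, *SCMH1* and *SCML2* traded places in both groups, and *MBTD1* and *L3MBTL4* did so in KO cells.

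**Figure D3:**
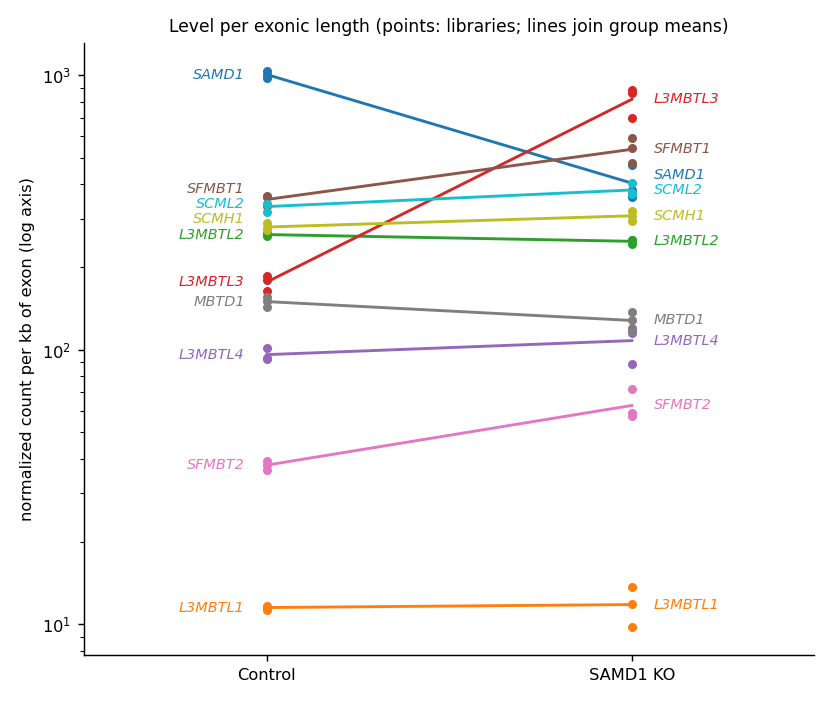
Normalized count per kb of annotated exon (vertical axis, log scale) of the 10 genes in Control and *SAMD1* KO cells, with a point for each library and lines between group means. *SAMD1* leads in Control at 1004 and drops to 404, while *L3MBTL3* climbs from 176 to 816 and leads in KO cells.

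Summed over the 9 MBT genes, the level per exonic length was 1697, 1681 and 1713 in the Control libraries and 2459, 2708 and 2629 in the clones, a 1.53-fold difference in the means. Without *L3MBTL3* the sums were 1518, 1517 and 1528 against 1760, 1823 and 1766, a 1.17-fold difference, so most of the gain in the sum was *L3MBTL3* transcript. The share of *L3MBTL3* in the sum was 10.5%, 9.76% and 10.8% in Control and 28.4%, 32.7% and 32.8% in the clones, with means of 10.4% ± 0.553 and 31.3% ± 2.49 (SD, n = 3 each). *SFMBT1* held its share, at 20.7% in both groups. A share also falls when the sum grows. *MBTD1*, which was not called, went from 8.82% to 4.91%, and *L3MBTL2* from 15.5% to 9.56%. Their own levels went only to 85.4% and 94.5% of Control. *SCML2* and *SCMH1* also lost share, from 19.6% to 14.7% and from 16.5% to 11.9%, although their mean levels were higher in KO cells. These shares describe transcripts and do not measure proteins.

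**Figure D4:**
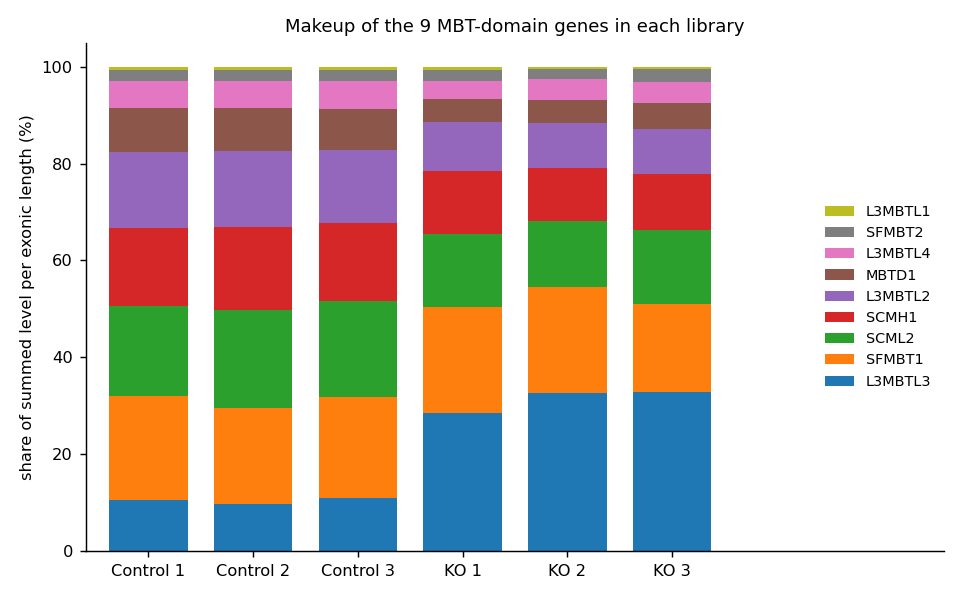
Share of each of the 9 MBT genes in their summed level per exonic length (vertical axis, percent, bars from 0) in each of the 3 Control libraries and the 3 *SAMD1* KO clones. The lowest segment, *L3MBTL3*, fills 9.76% to 10.8% of the Control bars and 28.4% to 32.8% of the KO bars.

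The partners of these proteins were examined in 8 lists with 71 genes in all, of which 69 were tested. *RCOR2* and *SAMD11* were called higher and none was called lower, against 5.77% and 2.08% of all tested genes. The median log2 fold change of the 69 genes was 0.00, beside -0.01 for all tested genes. *RCOR2*, which encodes a CoREST scaffold of KDM1A, was a rare transcript at 22.9, 21.5 and 14.9 normalized counts in Control and 52.4, 38.0 and 51.3 in the clones (log2 fold change 1.22, SE 0.260, adjusted p = 0.0247). *SAMD11*, a SAM-domain relative, measured 4.58, 3.91 and 5.73 in Control and 11.9, 31.1 and 14.4 in the clones (log2 fold change 1.70, SE 0.427, adjusted p = 0.0418). Its Control mean of 4.74 was under the filter of 10, so *SAMD11* was tested only because its KO mean was 19.1. No support is drawn from its call. Clone 2 gave the highest *SAMD11* level. Neither gene had a mean above 50, and with genes of lower means left out no listed gene was called. Which genes were called varied, since DESeq2 on 5 libraries called *SAMD11* but not *RCOR2*, and *HMG20B* was called higher without KO clone 3. *PHF21A* was called higher only in fits without KO clone 1, which include those with edgeR and DESeq2. It measured 2621, 2504 and 2560 normalized counts in Control and 2489, 3515 and 4234 in the clones. With all 6 libraries its groups overlapped (limma adjusted p = 0.192).

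The KDM1A-CoREST complex, through which H3K4 methyl marks are removed, had 1 gene called higher among 12, with a median log2 fold change of -0.01. *KDM1A*, singled out as the enzyme of the complex after its values were seen, measured 6579, 6194 and 6548 normalized counts in Control and 6673, 6193 and 5936 in the clones. The groups overlapped, at a log2 fold change of -0.04 (SE 0.060, 95% interval -0.18 to 0.10). Apart from *RCOR2* the smallest p in this list was that of *HMG20B*, at a log2 fold change of 0.40 (adjusted p = 0.0612). The FBXO11 ubiquitin ligase, listed as a partner of SAMD1, had none called among 5 genes, and *FBXO11* measured a log2 fold change of 0.11 (SE 0.074).

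Polycomb and acetyltransferase partners were not called either. None of 11 PRC1.6 partners of L3MBTL2 was called, at a median log2 fold change of -0.09, the lowest of the 8 lists, with *TFDP1* at -0.30 (adjusted p = 0.0536) and *CBX3* at -0.21 (adjusted p = 0.0616). None of 12 canonical PRC1 partners of SCMH1 and SCML2 was called (median 0.05), with *PCGF2* at 0.27 (adjusted p = 0.0505) and *CBX6* at 0.22 (adjusted p = 0.11). The 17 subunits of NuA4-TIP60 lay between -0.15 and 0.20 with a median of 0.00. Among 3 further partners of L3MBTL3 and the SFMBT proteins, the Notch transcription factor gene *RBPJ*, the ubiquitin ligase receptor gene *DCAF5* and *YY1*, none was called, with *YY1* at -0.15 and *DCAF5* at 0.11. *RING1*, *RNF2*, *KDM1A* and the genes of the Polyhomeotic family stand in more than 1 list.

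Among 9 enzymes that write or erase methyl groups on H4K20 and H3K4, the marks that several MBT proteins can bind, none was called. The H4K20 demethylase gene *PHF8* measured 2823, 2814 and 2750 normalized counts in Control and 3655, 3460 and 3655 in the clones, a log2 fold change of 0.36 (SE 0.050, adjusted p = 0.00536). The H3K4 demethylase gene *KDM5C* measured 9390, 9893 and 9299 in Control and 10592, 11570 and 11543 in the clones, a log2 fold change of 0.24 (SE 0.057, adjusted p = 0.0371). No clone of either gene overlapped with Control, yet both stayed below the fold change of a call. Both genes are on the X chromosome, like *SCML2*, and the genes around them were higher by a median log2 difference of 0.33 to 0.35 (*PHF8*) and 0.40 to 0.42 (*KDM5C*) in the 3 clones. Among the SAM-domain relatives without MBT repeats, *SCML4* and *SAMD7* had no read in any library, and *SAMD13* measured a log2 fold change of 0.78 from a Control mean of 12.1 without being called (SE 0.344).

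**Figure D5:**
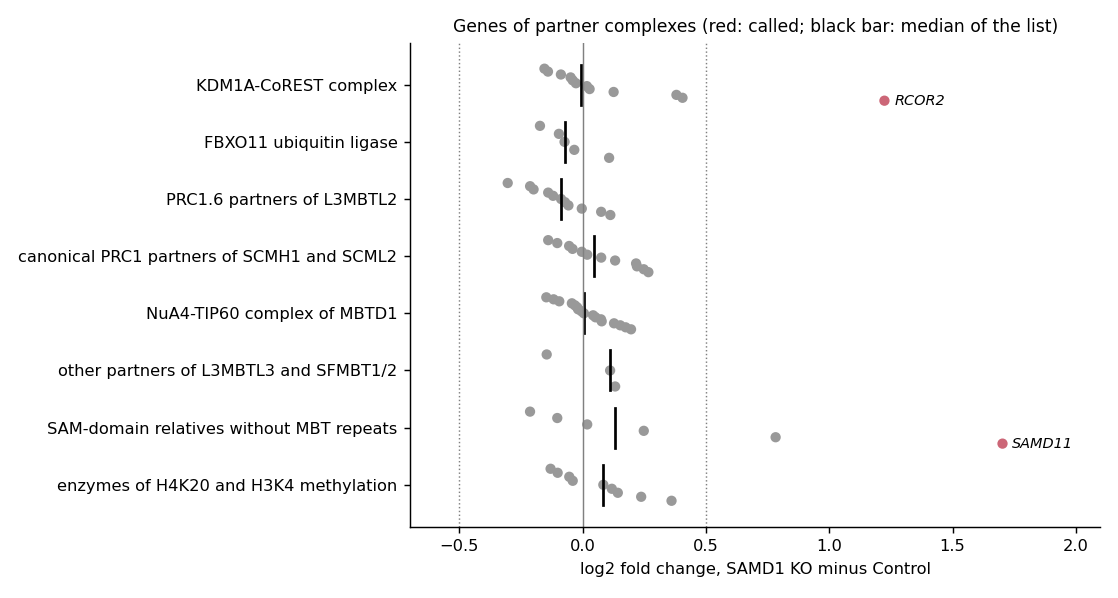
Log2 fold change between *SAMD1* KO and Control cells (horizontal axis, positive where KO is higher) for the 69 tested partner genes, arranged by list, with called genes in red, other genes in gray and a black bar at the median of each list. *RCOR2* at 1.22 and *SAMD11* at 1.70, which passed the filter only through its KO libraries, stand apart. The medians lie between -0.09 and 0.13.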

How the data were processed

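RNA was sequenced from 3 Control and 3 *SAMD1* KO libraries (TruSeq stranded mRNA kit). Per the labels, reads were counted with featureCounts on hg38 and normalized with DESeq2. The strand setting is not given in the sources used here. The signal deposited by the authors is a normalized count, meaning reads per gene over a size factor. In each library 100% of values were whole multiples of a step, within 0.01 of a whole number, which gives whole reads. A precaution against steps close to 1 set aside *SAMD1* KO replicate 1, whose step was 0.989. Count tests therefore used the other 5 libraries. A separate deposited table of the authors' own DESeq2 comparison (fold changes and p-values) was not used.

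Expression was compared with limma 3.58.1 (R 4.3.3, eBayes with trend) on log2(normalized count + 1) for 12773 genes with a mean of at least 10. Fold changes are on that scale, all tests were two-sided, and p-values were corrected over all tested genes (Benjamini-Hochberg). With 3 libraries a group, an exact permutation test reaches p = 0.1 at best. The cut-off is that of the study. Positions and exon lengths are from GENCODE 44 on GRCh38 (19734 symbols, 188 through older names). The regional median covers 20 tested genes on each side, whatever their distance. Among the 10 genes this region was narrowest for *L3MBTL2* (chr22:39040604-42084284) and widest for *L3MBTL3* (chr6:118959763-136793097). Named genes were the 10 genes, listed partners that were called or had the 2 smallest p of their list, the 5 transcripts most like *SAMD1* and *L3MBTL3*, and the nearest tested neighbors, some of which are not reported here. The genes, lists and tests were chosen with earlier results of these data known. The fit was tested on simulated data. Alternatives with edgeR 4.0.16 and DESeq2 1.42.0 on the reads of these 5 libraries were added after the data were seen.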

Additional observations from a re-analysis of the deposited data

How the results depend on the processing

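Over 16 alternatives, 155 of 160 values for the 10 genes kept their direction and side of the cut-off. This count includes settings under which a log2 fold change could not move. They are the fits without the filter, with a mean of at least 50, with the replicate number as a block, and with adjusted p in the call. Removing the regional median put *SFMBT1* at a log2 fold change of 0.38, under the cut-off, and turned *SCML2* to -0.13. *L3MBTL1* ran from -0.093 (without *SAMD1* KO replicate 1) to 0.151 with single libraries left out, and turned to -0.080 with edgeR and -0.087 with DESeq2, neither of which used that library. Leaving out each library in turn kept log2 fold changes at 2.14 to 2.31 for *L3MBTL3*, 0.53 to 0.68 for *SFMBT1*, 0.61 to 0.77 for *SFMBT2* and -1.44 to -1.24 for *SAMD1*, each with an adjusted p under 0.05. Partner genes called higher numbered 1 with a pseudocount of 10 (*RCOR2*), 0 with a mean of at least 50 and 1 to 3 with single libraries left out. *SAMD11* was lost without any 1 Control library or KO replicate 2, *PHF21A* was gained without KO replicate 1 and *HMG20B* without KO replicate 3. On 5 libraries edgeR called 3 (*PHF21A*, *RCOR2* and *SAMD11*) and DESeq2 2, without *RCOR2*. The main test did not treat replicate numbers as pairs. Correlations of same-numbered deviations were small, at 0.039, 0.134 and 0.032, but 5 of 6 libraries correlated best with their own number. Whether libraries of the same number were handled together cannot be told from these values. With the replicate number as a block, 984 in place of 1003 genes were called, the 4 calls among the 10 genes remained, and 1 partner gene (*RCOR2*) was called higher. With the longest transcript as the length, the level per kb rose for every gene, to 1049 for *SAMD1* and 24.7 for *L3MBTL1* in Control, and the share of *L3MBTL3* was 10.1% in Control and 30.6% in KO cells. Fits with edgeR and DESeq2 on all 6 libraries were not run. With 3 libraries a group, small changes such as those of *MBTD1* and *SCMH1* cannot be settled.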
